A study of Mus musculus with 28 samples.

Results

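Noncoding intervals that the array probed on both strands were compared strand against strand along the mouse brain. An interval was taken when the array held probes for its F strand and for its R strand, as the array design names them. Of 3540 intervals probed with a named strand, 1067 met this rule, with 9682 of 55681 probes, 4893 for F and 4789 for R. They lay on 20 chromosomes and were 5026 to 508115 bp long (median 17901 bp, build mm9). A strand was measured by its leading probe, the one with the highest mean level of up to 10, and 1066 intervals kept a measurable probe on each strand. What the annotation holds at these intervals, and where a probe lies within one, was not analysed here. Which genome strand F denotes is not given in the sources used here, nor is a probe sequence printed.

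RNA came from whole brains of C57BL/6J males aged 3 weeks, cut frozen along 1 axis by Transcriptome Tomography, which pools consecutive sections into fractions. One mouse was cut in the coronal plane (12 fractions), another in the horizontal plane (6) and another in the sagittal plane (10), with no other treatment. Each fraction went to 1 single-colour array, so no position was repeated, and mouse and plane cannot be told apart. By its label a fraction pooled 100 sections of 5 micron. The fraction thickness given in the study's methods differs from the one this makes, so positions are given as fraction numbers. The label of coronal fraction 12 names a further fraction as well.

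Long noncoding RNAs can be transcribed from either strand of a region, and antisense pairs and divergent transcripts are common near promoters and enhancers. In the brain many such RNAs are restricted to particular regions or cell types. A strand-specific probe reads the RNA of a single strand, so a pair of opposite probes can show which strand gives the stronger signal and whether that changes from region to region.

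All levels are log2 signals relative to the 75th percentile of the array, and the strand difference is F minus R in log2 on the same array. Scaling of an array cancels in this difference. Unequal response of the 2 probes does not, so the size of a difference also holds probe response, and only its change with position is free of a constant response. As a yardstick, the 2 brightest probes of the same strand were compared in the same way. Markers of the cells of the brain, among them neuronal Snap25, astrocytic Aqp4, oligodendrocytic Mbp, microglial Csf1r and endothelial Cldn5, were well above background on all 28 arrays (9 of 9 genes). Of markers of other tissues, liver Alb passed on 1 array, skeletal muscle Myh2 on 21 and pancreatic Ins2 on 28. The cerebellar list (Pcp2, Gabra6, Calb1) peaked in coronal fraction 3, the hindbrain list (Hoxa4, Hoxb5) in fraction 1, the cortical list (Tbr1, Neurod6) in fraction 9 and the olfactory bulb list (Omp, Eomes, Tbx21) in fraction 12, so low coronal numbers are caudal.

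Some arrays stood apart. A strand was counted as raised when it was well above background and at least 2 log2 over the median of the other fractions of its series. Of 2132 strands, 488 were raised in sagittal fraction 9, 250 in horizontal fraction 6, 157 in sagittal fraction 1, 134 in horizontal fraction 1 and 59 in horizontal fraction 5. The coronal arrays had 7 to 49. Levels are relative to the 75th percentile of an array, and the signal at that percentile was 176, 233, 135, 267 and 458 on these 5 arrays in the same order, against a median of 419 over all 28. All probes well above background numbered 29503, 30909, 28099, 29179 and 29290 on these arrays, against a median of 29234.5 over all 28. The share of raised probes over the whole array is not given here. These counts therefore do not tell a trait of these intervals from one of the whole array. The part of overall signal in the raised strands was not tested. Of the strands raised in horizontal fraction 6, 218 (87.2%) were also raised in sagittal fraction 9, where they made up 44.7% of the raised strands. In sagittal fraction 9 22.9% of all strands were raised. The share also raised there was 76.9% for horizontal fraction 1, 67.8% for horizontal fraction 5 and 25.5% for sagittal fraction 1. Detection, likeness of strands and changes of the dominant strand are given with and without sagittal fraction 9 and horizontal fractions 1, 5 and 6. Where named, they are also given without sagittal fraction 1. Position tests are given with single fractions left out.

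The data first showed how often both strands were detected. Over all 28 arrays, both strands were well above background on at least 1 array in 906 of 1066 intervals (85.0%). F alone was detected in 66 intervals, R alone in 71 and neither in 23. Without the 4 arrays with raised dim probes both strands were detected in 821 intervals, and without sagittal fraction 1 as well in 814. On a single array the number with both strands was 239 to 581, with F alone 178 to 245 and with R alone 187 to 245, so F alone and R alone were about as frequent. Both strands were detected on every one of the 28 arrays in 179 intervals. In the sagittal series the number with both strands was highest in fraction 4 and lowest in fraction 8, and in the coronal series it was highest in fraction 3 and lowest in fraction 11. The number of all probes on the array well above background was likewise higher in sagittal fraction 4 than in fraction 8 (34240 against 26329). In the coronal series it was 30254 in fraction 3 and 24822 in fraction 11. Intervals with both strands detected had a median of 10 probes, against 6 for those with F or R alone and 2 for those with neither, and the part of probe number in detection was not tested.

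**Figure D1:**
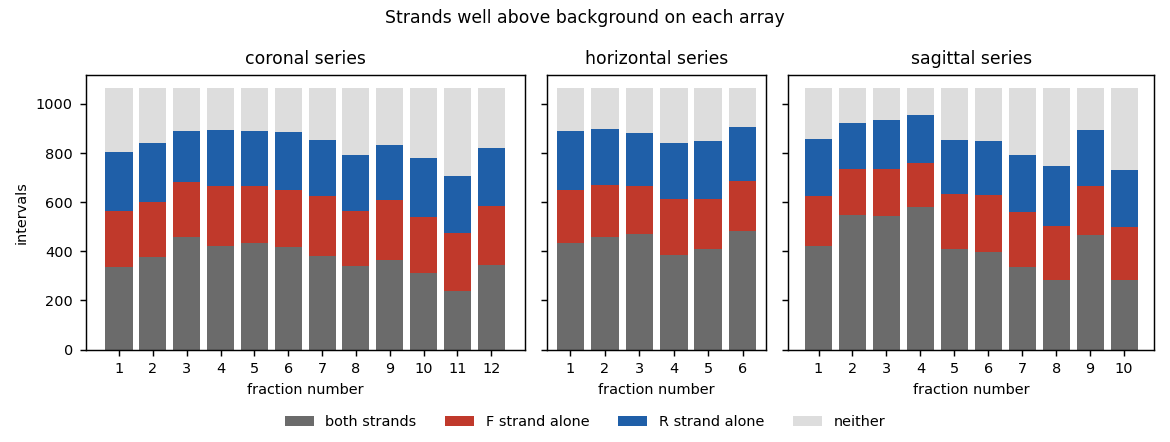
Stacked bars give the number of intervals (y axis, of 1066) with both strands, F alone, R alone or neither well above background on the array of each fraction (x axis, fraction number), in 3 panels for the coronal, horizontal and sagittal series. The dark grey part for both strands runs from 239 to 581 intervals, the F part from 178 to 245 and the R part from 187 to 245.

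When detection was asked of the other probes on the array, 69.5% of the probes of these intervals were well above background on at least 1 array. It was 71.0% of the probes of intervals probed on a single strand and 84.5% of all other probes. The shares detected on all 28 arrays were 15.0%, 14.8% and 48.4%.

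The second question was by how much 1 strand exceeded the other. In the 179 intervals with both strands detected throughout, the mean strand difference over 28 arrays had a median size of 2.18 log2, with quartiles of 0.90 and 4.35 and a maximum of 11.01. F was higher in 91 of 179 and R in the rest. The size was at least 1 log2 in 130 intervals and at least 3 log2 in 70. The 2 brightest probes of the same strand differed by a median of 0.91 log2 (quartiles 0.33 and 1.99) in 299 strands. The difference was at least 1 log2 in 141 and at least 3 log2 in 57. These strands were taken from all 1066 intervals, not only the 179, where both probes were well above background on all 28 arrays. The 2 brightest probes of 1 transcript differed by a median of 1.42 log2, and of 2614 such pairs 1624 differed by at least 1 log2 and 570 by at least 3 log2. How much of a strand difference was probe response was not tested.

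The preferred strand was mostly shared between the 3 brains. The mean difference had the same sign in all 3 series in 163 of 179 intervals, and the same sign on all 28 arrays in 121. Among the 130 intervals with a mean difference of at least 1 log2, 112 kept the sign on all 28 arrays. Across these 179 intervals the coronal and sagittal means had a Pearson r of 0.99 and the coronal and horizontal means 0.98. These are descriptions across intervals measured by the same probes, so a constant probe response is shared between the brains. The gap between 2 brains had a median of 0.25 log2 for coronal and sagittal and 0.46 log2 for coronal and horizontal. No interval had F higher in every fraction of 1 series and R higher in every fraction of another (0 of 179).

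**Figure D2:**
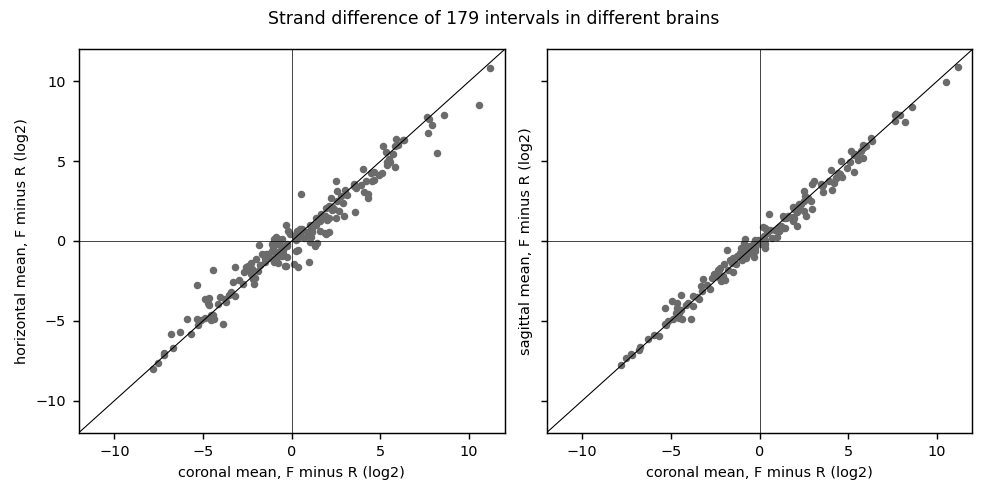
Each point is 1 of 179 intervals with both strands well above background on all 28 arrays, with the coronal mean of F minus R (x axis, log2) against the horizontal (left) or sagittal (right) mean (y axis, log2), and the line marks equality. Points lie along the line from the strong R side to the strong F side, with more scatter for the horizontal series.

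A dominant strand was then assigned where the mean difference was at least 1 log2 and the higher strand was well above background on at least 14 arrays. This gave 360 intervals to F and 360 to R, and left 346 with none. Of neighbouring intervals within 10000 bp that each had a dominant strand, 16 of 25 pairs (64.0%) shared its name, against 221 of 453 pairs (48.8%) of neighbours farther apart.

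The 4 intervals with the highest level of the weaker strand showed strong signal from the leading probes of both strands. At chr12:73838608-73862621 (5 probes on each strand) the F level was 6.47 to 9.55 over the 28 arrays and the R level 7.16 to 9.92. R was higher on all 28 arrays, by 0.62 ± 0.24 log2 (SD over 28 arrays), and the leading probes followed each other (r = 0.91 over 28 arrays). The other probes lay far lower. Of the 4 other F probes, the 1 detected on 14 or more arrays had a mean level of -1.64 and an r of 0.09 with the leading F probe. The 2 such R probes had r of 0.90 and 0.66 with the leading R probe. At chr17:39960567-39992817 F stood at 5.40 ± 0.60 and R at 3.17 ± 0.47, with F higher on all 28 arrays. At both of these intervals the strand difference changed along the coronal series (adjusted p = 0.041 and 0.039, limma), but these calls were fragile, since the p was 0.858 and 0.394 with slide as a term, and with each fraction left out in turn they passed in 2 of 12 fits (0.00853 to 0.103) and 1 of 12 (0.00629 to 0.0931). At the chr17 interval the 3 other F probes followed the leading one with r of 0.72 to 0.94 and the 4 other R probes with r of 0.77 to 0.99.

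At chr5:35975265-35982561 R was higher on 27 of 28 arrays, by 1.31 ± 0.56 log2, and the 3 other F probes followed the leading one with r of 0.89 to 0.98, against 0.40 to 0.79 for the 3 other R probes. At chr18:36449530-36456800 R was higher on all 28 arrays, by 0.97 ± 0.67 log2, but the leading probes did not follow each other (r = -0.35). In the sagittal series its F level was 3.57 in fraction 1, 5.39 to 5.51 in fractions 3 to 6 and 4.09 in fraction 9, while R was 6.54 in fraction 1 and 5.64 in fraction 5. The strand difference changed along that axis (adjusted p = 0.017, limma, range of the fitted curve 2.89 log2), and the p was 0.036 with slide as an added term, 0.125 without fraction 1 and 0.481 within fractions 5 to 10, which share a slide. Here the probes of a strand disagreed: all 7 other F probes followed the leading F probe with r of 0.50 to 0.98, whereas the 7 other R probes detected on 14 or more arrays had r of -0.62 to -0.15 with the leading R probe and of 0.57 to 0.84 with the leading F probe. The negative r between the strands therefore rests on the leading R probe. The other R probes had mean levels of -4.56 to -0.30 and the other F probes of -3.20 to 3.76. The higher level of R therefore also rests on the leading R probe.

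In 39 intervals the leading probe of 1 strand was well above background on all 28 arrays and that of the other strand on none, F in 21 and R in 18. In 15 of the 39 a further probe of the weaker strand passed on at least 1 array, and in 24 no probe did. The brightest was chr8:48476637-48492537, with an F level of 3.48 to 5.43 (median 4.56) and 5 probes on each strand. The leading R probe stayed between -7.05 and -3.68 and was not well above background on any array, while another R probe passed on 1. For a bound the leading R probe was set, array by array, to the dimmest signal that still passed the background flag, or to its own level where that was higher. Averaged on the log2 scale over the 28 arrays F was at least 454-fold higher, and on the array with the lowest bound, sagittal fraction 9, at least 91.0-fold. Such bounds hold unequal probe response. At chr3:127170996-127201096 F was 3.15 to 5.17, on average at least 382-fold higher than the R strand, which had 1 probe, and at least 75.2-fold in sagittal fraction 9. At chr7:69024136-69131056 F was 1.35 to 2.70, on average at least 94.0-fold higher and at least 22.7-fold in sagittal fraction 9, and an R probe other than the leading one passed on 1 array. The R-sided case was chr1:52507332-52514490, with R at 1.61 to 2.95. It was on average at least 100.3-fold over the single F probe and at least 31.6-fold in sagittal fraction 9, and here 2 other R probes had r of 0.96 with the leading probe. In the first 2 of these intervals the other F probes detected on 14 or more arrays lay at -3.41 to -2.14 and did not follow the leading probe (r of -0.32 to -0.21). At chr7:69024136-69131056 the 2 such probes had r of -0.09 and 0.85. Further F probes lay far lower, at -5.83 to -5.44 at the chr8 interval and -6.31 and -6.12 at the chr3 interval. At the chr7 interval they lay at -6.12 and -5.89. The leading R probes had means of -6.05, -6.26 and -6.10 in the same order. At the chr1 interval 1 further R probe lay at -6.48, against a mean of -6.21 for the F probe. These further probes passed on 3 arrays at most, so levels differed about as much within the brighter strand as between strands.

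Opposite strands in these 179 intervals had a lower r with each other than probes of the same strand in 299 strands, a difference for which no test was run. The 299 strands came from all 1066 intervals, so the 2 sets of intervals differ. Over 28 arrays the median r between F and R was 0.28 in the 179 intervals (quartiles 0.00 and 0.62), and between the 2 brightest probes of a strand 0.69 (quartiles 0.39 and 0.91). The opposite pair had an r below 0 in 45 of 179 intervals and the same-strand pair in 27 of 299. Both values depend on scaling, and they were 0.53 and 0.80 when arrays were scaled to their median. Without the 4 arrays of sagittal fraction 9 and horizontal fractions 1, 5 and 6 they were 0.40 and 0.73, and the opposite value was 0.32 without sagittal fraction 1 as well. The spread of the difference over arrays, which no array scaling can change, had a median SD of 0.56 log2 for opposite strands and 0.37 log2 for probes of the same strand, and of 0.46 and 0.29 log2 without those 4 arrays.

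The third question was whether the strand difference changed with position. It was tested in limma with a smooth curve over the fraction number, for pairs with both probes well above background in every fraction of a series, and p-values were adjusted over all pairs of probes to 1 target. In the coronal series the difference changed in 77 of 202 intervals (38.1%), where 22.9% of all pairs tested were called. The 2 brightest probes of a strand changed against each other in 87 of 352 cases (24.7%). The median fitted range among the 77 was 1.72 log2, and in 20 of them the fitted curve crossed 0, so that the fitted higher strand differed between fractions. In 35 of the 77 the strands had an r below 0 over the 12 fractions. Neither count is given for all 202 tested intervals, and a test of F minus R favours strands that diverge. No trait of the called intervals can be read from these counts. The coronal arrays lay on 3 slides, with fractions 1 and 2 on the first, 3 to 10 on the second and 11 and 12 on the third. With slide as an added term, limma called 0 intervals (46 at an unadjusted p under 0.05), and within the second slide alone 31, of which 21 were among the 77. Slide and the ends of the brain can therefore not be told apart in this series.

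The largest coronal change was at chr13:44217172-44224947. F, read by A_30_P01023509, was 1.52, 2.08 and 1.86 in fractions 1 to 3, 0.27 in fraction 4 and between -1.46 and -0.46 in fractions 5 to 12. R, read by A_30_P01024630, was lower at both ends (r = -0.29 with F over the 12 fractions), at -0.83 to 0.00 in fractions 1 to 3, 0.80 in fraction 4, between 1.29 and 1.73 in fractions 5 to 9, 3.43 in fraction 10, 0.28 in fraction 11 and its lowest level in fraction 12. F was thus the higher strand in the 3 caudal fractions, by 1.53 to 2.91 log2, and R in fractions 5 to 11, by 1.11 to 3.89 log2. The fitted range was 5.59 log2 (adjusted p = 0.013, limma, and 0.021 within the second slide alone, against 0.41 with slide as a term).

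The F profile of that interval was like that of the cerebellar markers (Purkinje-cell Pcp2 and Calb1, granule-cell Gabra6), with an r of 0.96 over the 12 coronal fractions, and 0.96 to 0.98 under 3 other scalings. With the hindbrain markers it had 0.85. R had an r of 0.73 with the cortical markers. Neither likeness was found in the other brains, where the r of F with the cerebellar list was -0.51 over the 6 horizontal and 0.12 over the 10 sagittal fractions, and that of R with the cortical list -0.38 and 0.04. The second F probe followed the first over 28 arrays (r = 0.71), while the 1 other R probe detected on 14 or more arrays did not (r = 0.16). The genes whose profiles were most like F over all 28 arrays were Prl2c5 (r = 0.93), Jaml (0.89) and Plekhd1os (0.88), and those most like R were Olfr1415, Spem2 and A430093F15Rik (0.98, 0.98 and 0.93). In the horizontal series the strands lay within 0.40 log2 of each other in all 6 fractions. In the sagittal series R was higher by 3.96 log2 in fraction 1 and by 2.32 log2 in fraction 10 while F was higher by 0.59 to 1.02 log2 in fractions 3 to 6 and by 1.21 log2 in fraction 9, but this curve missed the threshold (adjusted p = 0.096, limma).

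At chr18:36470130-36489110, 13330 bp beyond the chr18 interval above, the coronal strands ran in opposite directions (r = -0.88 over 12 fractions). F, read by A_30_P01028822, was -0.96, -0.54 and -0.59 in fractions 1 to 3 and between -2.70 and -1.68 from fraction 4 on. R, read by A_30_P01023832, was -2.84, -2.97 and -2.17 in fractions 1 to 3, between -0.50 and 0.18 in fractions 4 to 10, and -1.72 and -1.95 in fractions 11 and 12. F was higher by 1.58 to 2.43 log2 caudally and R by 1.47 to 2.70 log2 in fractions 4 to 10.

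The fitted range there was 5.56 log2 (adjusted p = 0.00555, limma, 0.020 within the second slide and 0.36 with slide as a term). F had an r of 0.82 with the cerebellar markers over the coronal fractions and of 0.85 over the 6 horizontal ones, where its r with the olfactory bulb markers was 0.95. R had an r of 0.98 and 0.92 with the cortical markers (Tbr1 and Neurod6, transcription factors of cortical projection neurons). In the sagittal series the strand difference stayed between -0.66 and 0.63 log2, and the same correlations were -0.02 and 0.05. The gene most like R over 28 arrays was Dnal1 (r = 0.95), an axonemal dynein light chain, and the one most like F was Sbk1 (0.87). No other probe of this interval was well above background on 14 or more arrays, so each strand rests on a single probe.

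At chr2:35828611-35838083 the change came from R at the rostral end. R, read by A_30_P01022420, was between -2.04 and -1.01 in coronal fractions 1 to 10 and 0.35 and 0.23 in fractions 11 and 12, while F was -1.72 and -2.10 there. In coronal fractions 1 to 10 the strands lay within 1.34 log2 of each other. R followed the olfactory bulb markers (Omp of olfactory sensory neurons, Eomes and Tbx21 of mitral and tufted cells), with an r of 0.98 over the coronal and 0.89 over the 6 horizontal fractions, and 0.22 over the sagittal ones. All 4 other R probes detected on 14 or more arrays followed the leading one (r of 0.70 to 0.92). The genes most like R were Kank3 (r = 0.95), Gpsm1 and Sh2b2 (both 0.92). The fitted range was 3.30 log2 (adjusted p = 0.00589, limma), and the p was 0.060 within the second slide, which does not hold fractions 11 and 12, and 0.52 with slide as a term.

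At chr3:88009045-88036270 F stayed the higher strand in all 28 fractions, by 2.57 to 6.50 log2. In the coronal series F was 1.96 to 3.48, and R was -2.75 to -2.45 in fractions 1 and 2, -1.44 to -0.44 in fractions 3 to 10 and -3.13 to -2.84 in fractions 11 and 12. The steps in R fell between fractions 2 and 3 and between 10 and 11, which are also the borders between slides. Position and slide cannot be told apart at these borders. The 1 other R probe detected on 14 or more arrays had r of -0.22 with the leading R probe over 28 arrays. The remaining R probes had r of -0.33 to 0.00, so the steps in R rest on a single probe. The 5 other F probes detected on 14 or more arrays had r of 0.30 to 0.84 with the leading F probe. The adjusted p was 0.00589 in limma, 0.104 within the second slide and 0.545 with slide as a term.

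**Figure D3:**
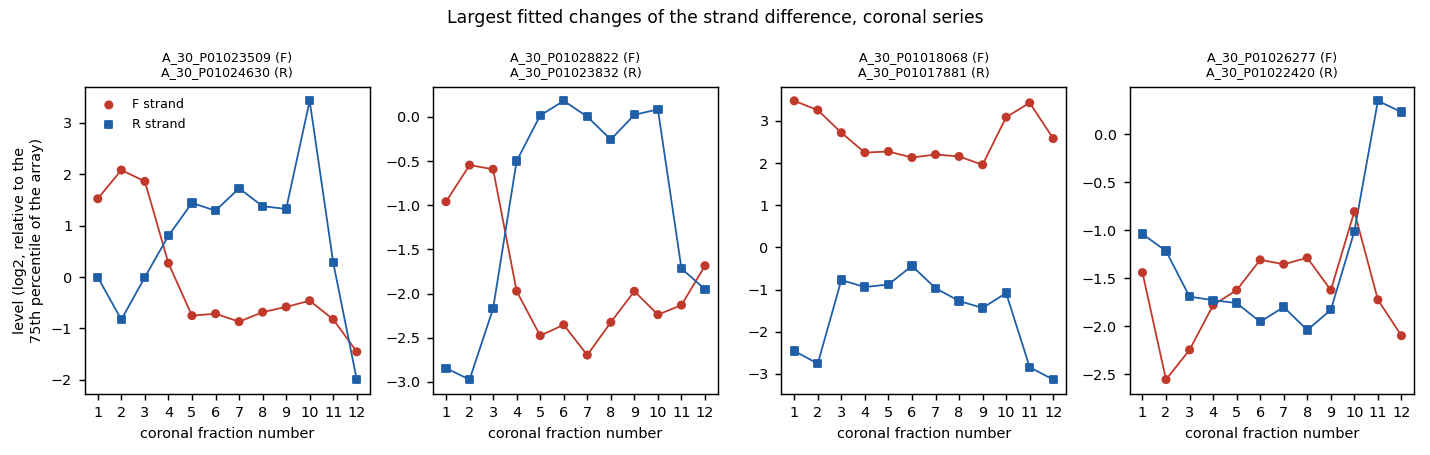
Levels of the F strand (red circles) and the R strand (blue squares) along the 12 coronal fractions (x axis, caudal at left) for the 4 intervals with the largest fitted change, in log2 relative to the 75th percentile of the array (y axis, a different scale in each panel), titled by their leading probes. All points are well above background. In the first and second panels F is the higher strand in fractions 1 to 3 and R in fractions 5 to 10, in the third F stays above R, and in the fourth R rises to 0.35 and 0.23 in fractions 11 and 12.

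In the horizontal series the difference changed in 51 of 289 intervals (17.6%), with 5.84% of all pairs called, and among the 2 brightest probes of a strand in 51 of 449 (11.4%). With 2 degrees of freedom the fitted curve always has an extreme in the first or last fraction, as all 51 had. The fitted F over R was highest in fraction 6 in 21 of them and lowest there in 25. The count of 51 called intervals rests on few arrays. In limma it was 1 without fraction 3, 0 without fraction 4 (125 at an unadjusted p under 0.05) and 0 without fraction 6 (132 at that p). With a straight line in place of the curve it was 0 (17 at that p). It was 31 to 37 without fraction 1, 2 or 5.

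The 4 intervals with the largest fitted horizontal range all moved on the arrays that stood apart. At chr10:116814196-116920696 R was 1.95, 0.40 and 2.92 in fractions 1, 5 and 6 and between -2.57 and -1.84 in fractions 2 to 4, while F stayed between -1.37 and -0.85. R was therefore higher in fractions 1, 5 and 6 and F in fractions 2 to 4 (fitted range 6.54 log2, adjusted p = 0.031, limma). In sagittal fraction 9 R stood at 3.58, against -3.47 to -1.53 in the other 9 sagittal fractions. In the coronal series F was higher in every fraction, by 1.63 to 3.30 log2.

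At chr17:88225376-88238756 F stood at 1.42, 0.01 and 2.48 on horizontal arrays 1, 5 and 6, against -2.07, -2.26 and -1.997 on arrays 2 to 4, and at 3.29 in sagittal fraction 9 (adjusted p = 0.030, limma). At chr16:23992037-24001037 F was 0.54, -0.68 and 1.35 against -2.83 to -2.40, and 2.03 in sagittal fraction 9 (adjusted p = 0.045). At chr13:73472571-73483846 F was 2.17, 0.26 and 3.68 against -4.19 to -2.88, and 5.35 in sagittal fraction 9 (adjusted p = 0.033), while R stayed at 5.34 to 8.62 on all 28 arrays. With each fraction left out in turn, the chr17 and chr10 calls passed in 3 of 6 fits each (adjusted p up to 0.109 and 0.120, limma). The chr16 and chr13 calls passed in 1 of 6 each (up to 0.147 and 0.129). Other probes detected on 14 or more arrays followed the leading ones weakly or not at all. The 2 F probes and 2 R probes at the chr13 interval had r of 0.17 to 0.43 and of 0.10 to 0.22 with the leading probe of their strand. The 1 R probe at the chr17 interval had -0.09 and the 1 R probe at the chr16 interval -0.54. R was not the raised strand there, and the chr10 interval had no such probe. Some probes of the raised strand detected on fewer than 14 arrays did follow its leading probe. At the chr10 interval 1 R probe, detected on 7 arrays, had r of 0.90 and the other R probes 0.40 to 0.48. At the chr13 interval F probes detected on 4 arrays or fewer had r of 0.45 to 0.71. At the chr16 interval the other F probes had r of -0.35 to 0.52, and the chr17 interval had no other F probe. In each of these intervals the same strand was high on the same 4 arrays of 2 brains. Pituitary hormone genes were also high in horizontal fraction 6. The mean level of Pomc, Gh and Prl was 1.45 there, with 3 of 3 well above background, against -3.85 to -3.45 on the other 5 horizontal arrays, where only Pomc passed, and -2.64 in sagittal fraction 9. The hypothalamic list (Avp, Oxt and Pmch, peptides of hypothalamic neurons) was also highest of the horizontal series in fraction 6, and the raised strands of the 4 intervals had r of 0.79 to 0.80 with it over the 6 horizontal fractions and of -0.38 to -0.17 over the 10 sagittal ones. The part of pituitary and hypothalamic tissue in these results was not tested. The genes most like that strand were shared between them: Gcm1 and Nr1i3 for the chr13 and chr10 intervals (r of 0.98), and St6galnac1 for the chr17 and chr16 intervals (r of 0.99).

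In the sagittal series the difference changed in 21 of 199 intervals (10.6%), with 5.9% of all pairs called, and among the 2 brightest probes of a strand in 22 of 330 (6.67%). In limma the count was 0 without fraction 1 (40 at an unadjusted p under 0.05), 8 without fraction 3, 6 without fraction 6, 59 without fraction 9 and 60 without fraction 10. Pairs of probes to 1 transcript moved likewise, from 155 of 2700 to 0 (461 at an unadjusted p under 0.05), 37, 38, 352 and 369 in the same order. The interval count was 12 with slide as an added term, and 0 among fractions 5 to 10, which share a slide (27 at an unadjusted p under 0.05). The largest change was at chr1:138528250-138538250, where F was -1.62 in fraction 1, between 0.24 and 0.54 in fractions 3 to 7 and -0.68 in fraction 9. R ran against it, at 0.71 in fraction 1, -1.60 to -1.22 in fractions 3 to 7 and -0.08 in fraction 9 (r = -0.91 over 10 fractions, adjusted p = 0.026, limma, and 0.125 without fraction 1). Among other probes detected on 14 or more arrays, 5 F probes had r of 0.84 to 0.96 with the leading F probe. The 1 such R probe had 0.61 with the leading R probe. For probes detected on fewer arrays these r were -0.69 to 0.46 for F and 0.07 to 0.66 for R. The F probe with -0.69, detected on 1 array, had r of 0.72 with the leading R probe. Over all 28 arrays the strands of this interval had an r of -0.82, and F was higher on 25.

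At chr17:71242333-71273533 R was higher in all 10 sagittal fractions, by 1.63 log2 in fraction 1 and 5.19 log2 in fraction 4, with F at 1.02 and -3.12 there (adjusted p = 0.045, limma, and 0.211 without fraction 1). At chr15:98842850-98853100 R was 5.88 in fraction 1 and 1.74 in fraction 4, with F between -3.10 and -0.71 (adjusted p = 0.035, and 0.328 without fraction 1). At chr16:8738782-8830148 R was 5.80 in fraction 1 and 4.55 in fraction 2, and 2.27 in fraction 5, while F stayed between 0.76 and 1.37 (adjusted p = 0.022, and 0.240 without fraction 1). In these 3 intervals R was the higher strand on all 28 arrays. At the chr17 and chr15 intervals no other probe was detected on 14 or more arrays, so each strand rests on a single probe. The F strand of the chr16 interval does so too, while its 2 such R probes had r of 0.21 and 0.77 with the leading R probe. The mean level of the pituitary genes was highest of the sagittal series in fraction 1, at -2.42 against -4.66 to -2.64 in the other 9, with Pomc at 2.71 there, and their part in these changes was not tested.

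**Figure D4:**
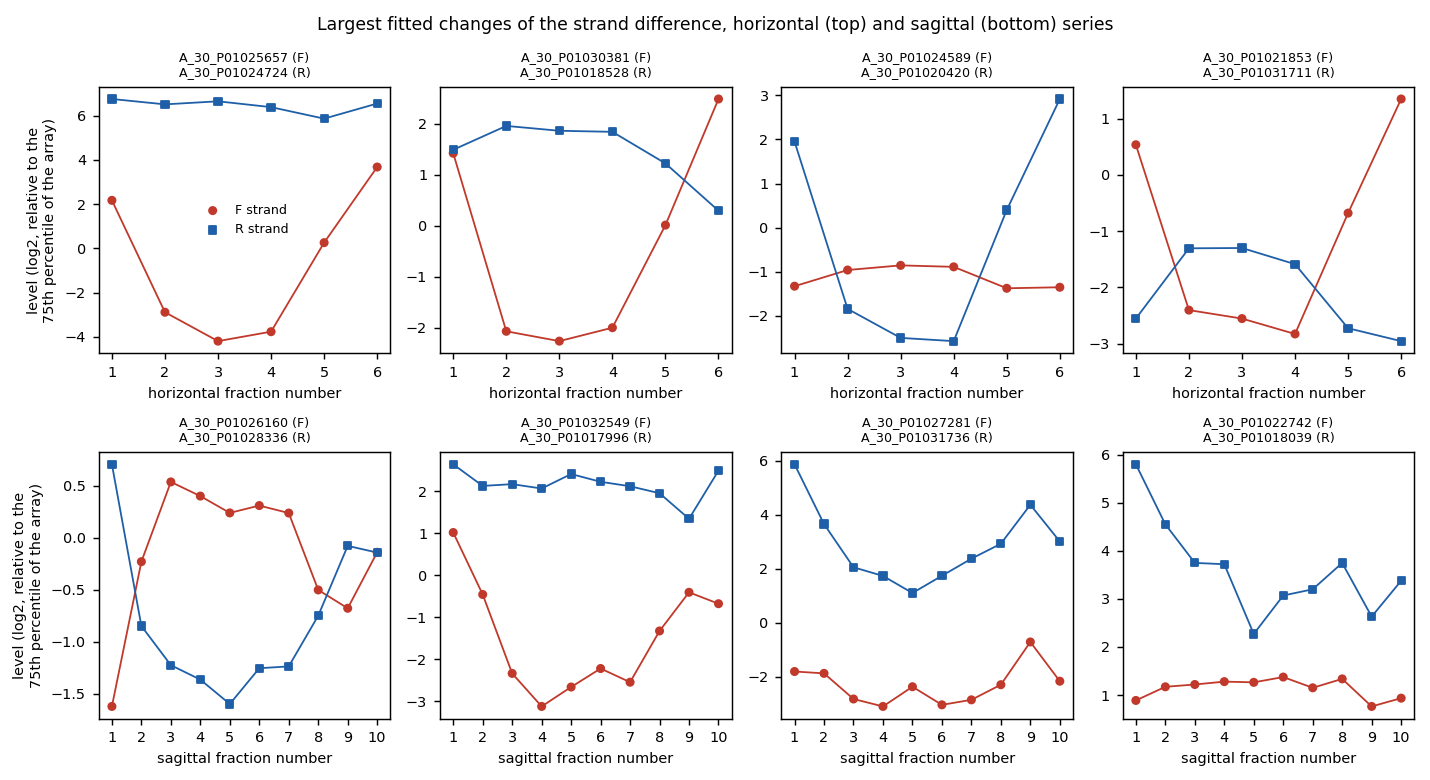
Levels of the F strand (red circles) and the R strand (blue squares) along the 6 horizontal fractions (top row) and the 10 sagittal fractions (bottom row, x axis) for the 4 intervals with the largest fitted change in each series, in log2 relative to the 75th percentile of the array (y axis, a different scale in each panel), titled by their leading probes. In the top row 1 strand is high in fractions 1, 5 and 6, and in each panel of the bottom row the strand difference has its highest or lowest value in fraction 1.

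Over the 3 series, 123 of 304 intervals tested in at least 1 series were called in at least 1, where 26.9% of all pairs tested were. Of 179 tested in all 3 series, 3 were called in all of them, where the share over all pairs was 0.362%. These 3, named after their values were seen, were chr11:97275905-97310538, chr13:70745306-70837331 and chr5:106982442-107045717. At the first, F was higher on all 28 arrays, by 1.67 to 6.00 log2. At the second the difference ran from -3.53 to 0.31 log2, and at the third from -1.75 to 1.78 log2. None of the 3 kept its calls throughout, since the adjusted p (limma) was 0.273 to 0.921 in the coronal series with slide as a term, 0.109 to 0.116 in the horizontal series without fraction 6 and 0.125 to 0.317 in the sagittal series without fraction 1. In bulk fractions such as these, fewer cells of a type and less RNA per cell cannot be told apart.

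Last, changes of the dominant strand were counted directly. An interval was counted when, within a series, F exceeded R by at least 1 log2 in a fraction and R exceeded F by at least 1 log2 in another, each time with the higher strand well above background. This held in 77 of 1066 intervals in the coronal series (7.22%), 68 in the horizontal (6.38%) and 162 in the sagittal (15.2%). Over all pairs of probes to 1 target the shares were 5.21%, 2.63% and 7.41%, and since same-strand pairs were ordered by brightness they cross 0 less easily by construction. In total 236 of 1066 intervals met this in at least 1 series and 5 in all of them, where the shares over all pairs were 12.5% and 0.214%.

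These counts leaned on the arrays that stood apart. The rarer direction fell in sagittal fraction 9 in 98 of 162 intervals and in horizontal fraction 6 in 28 of 68, while no coronal fraction held more than 19 of 77. Without sagittal fraction 9 the sagittal count was 71, without fraction 1 it was 152 and without both 60, and without horizontal fraction 6 the horizontal count was 46. It was 5 without horizontal fractions 1, 5 and 6, which also leaves only 3 fractions in which a direction can be met. With normexp background correction the counts were 8, 10 and 42, and with both strands required to be well above background 17, 21 and 56. Most changes did not meet the count once both strands had to be well above background.

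**Figure D5:**
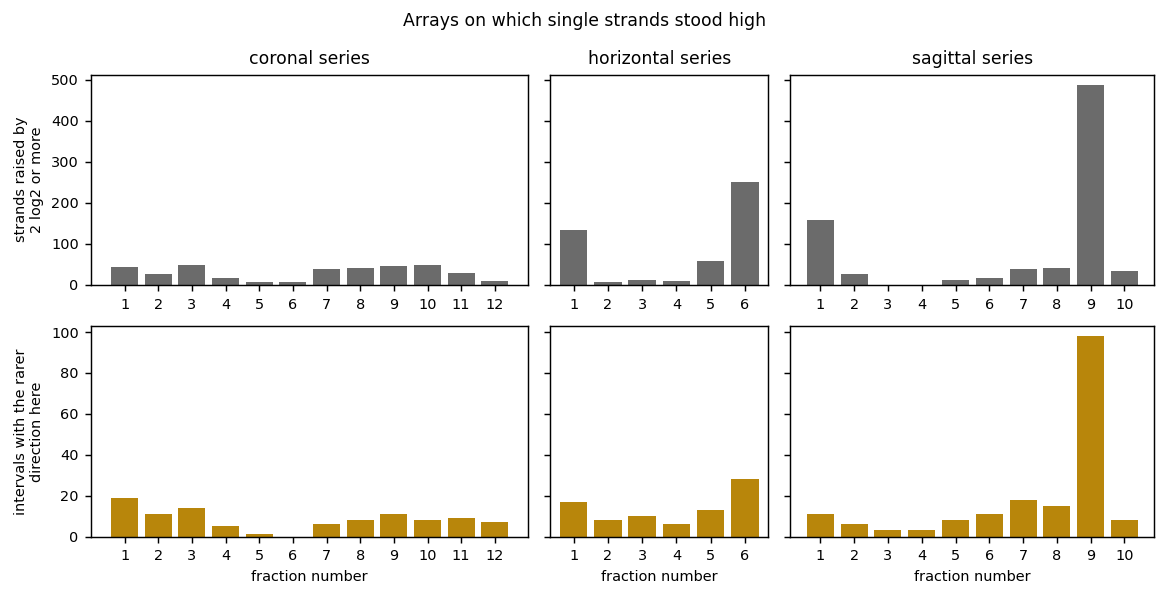
Upper bars give the number of strands (y axis, of 2132) that were well above background and at least 2 log2 over the median of the other fractions of the series, and lower bars the number of intervals whose rarer direction of strand difference fell in that fraction (y axis), by fraction number (x axis) in the coronal, horizontal and sagittal series. Sagittal fraction 9 holds 488 raised strands and 98 of 162 rarer directions, and horizontal fraction 6 holds 250 and 28 of 68.

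The 4 largest changes by this measure each rested on 1 or a few arrays, and their order used the measured level of a strand also where it was not well above background. At chr6:95418306-95424131 F reached 7.31 in sagittal fraction 5 but ran from -7.48 to 0.27 on the remaining sagittal arrays, and it was well above background on 5 of 28 arrays. R, read by A_30_P01026733, was well above background on all 28 arrays and stayed between -1.47 and 0.28. At chr5:53931541-53945241 R was 1.99 in sagittal fraction 9 and -6.34 to -3.20 in the other 9. R was well above background in fractions 1, 2, 5 and 7 among these, where F was higher by 1.97 to 4.00 log2, while R was higher by 3.77 log2 in fraction 9. Along the horizontal series the difference at this interval ran from -2.70 to 2.73 log2 (adjusted p = 0.030, limma). No interval was called in that series without fraction 4 or 6. The other R probes had r of 0.48 to 0.90 with the leading R probe over 28 arrays. At chr8:110197171-110206546 F was -4.95 to -2.11 in sagittal fractions 1 to 4, where R was not well above background, and R was -2.04 in fraction 5, where F was not. R passed on 4 of 28 arrays. At chr10:122410471-122422759 F was -2.03 and -1.95 in coronal fractions 5 and 9 and R was -2.52 in fraction 2, and each strand was well above background on 2 of 28 arrays.

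Under a stricter count, with both strands well above background and at least 2 fractions in each direction, 3 of 1066 intervals remained in the coronal series, 5 in the horizontal and 3 in the sagittal, 10 different intervals in all. Over all 10289 pairs of probes the shares under this count were 0.156%, 0.068% and 0.0583%. This combination was chosen after the values were seen. The coronal ones were chr13:44217172-44224947, chr18:36470130-36489110 and chr3:36280098-36347798, where F was higher by up to 2.51 log2 in 6 fractions between 4 and 10 and R by up to 1.66 log2 in fractions 1 and 12. The first of these was also among the sagittal ones, with F higher in fractions 5 and 9 and R in fractions 1, 2 and 10. In each of the 5 horizontal intervals 1 direction was made of fractions 1 and 6, in 3 of them with fraction 5.

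Single probes of these intervals were also tested for change with position, each on its own. Of 3409 probes tested, 848 (24.9%) changed along the coronal series, 614 (18.0%) along the horizontal and 539 (15.8%) along the sagittal (limma). Over all 32118 probes tested the shares were 33.6%, 15.8% and 14.8%. Without a fraction the coronal count was 589 to 962. In limma the horizontal count was 0 without fraction 3 or fraction 4 (1286 and 958 at an unadjusted p under 0.05). It was 169 without fraction 6 and 345 to 752 without any other fraction. The sagittal count was 0 without fraction 1 (686 at that p). It was 1589 without fraction 9 (46.6%, against 38.8% of all probes tested) and 1835 without fraction 10 (53.8% against 47.1%). Without any other fraction it was 204 to 425. With slide as an added term the member count was 6 in the coronal series (0.176%, against 0.744% of all probes tested). In the sagittal series it was 253 (7.42% against 7.82%). With the array median as scale it was 1477 in the horizontal series (43.3%, against 59.6% of all probes tested) and 31 in the sagittal series (0.909% against 0.999%).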

How the data were processed

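Total RNA of the 28 fractions was amplified linearly, labelled with Cy3 and put on Agilent arrays. The deposited scanner intensity values come, per the file headers, from Feature Extraction 10.5.1.1 with background subtraction at every spot, on a design of build mm9. A table of log2 values deposited by the authors held 44721 probes, 6735 of them of these intervals, which matched the values computed here up to a constant of 0.00111 to 0.00758 on each array.

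Here spots of a probe were averaged without outlier-flagged ones, and log2 values were set relative to the 75th percentile of their array. The 468 probes with a flagged spot on some array were left out, 31 of them of these intervals. A probe counted as well above background where at least 0.5 of its spots had that flag. Position was tested with limma 3.58.1 (R 4.3.3) by an F-test on a natural spline in fraction number with 3 degrees of freedom (2 for horizontal), with Benjamini-Hochberg adjustment and a threshold of 0.05. With no repeated position, error was taken from the scatter around the curve, so p-values describe these 3 brains. The fits were also run on simulated data, but that outcome is not given here. The number of arrays limits the precision, and signal was 135 to 574 at the 75th percentile, with 24822 to 34240 probes well above background.

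The text names, by rule, the 4 intervals with the highest weaker strand, the 4 brightest with a single strand detected, the 4 with the largest called change per series, the 4 with the largest change of dominant strand, and 3 similar genes per strand. The interval of the noncoding probe that the study singles out is probed on a single strand and is not described. Probes were named through a RefSeq table for 27235 of 55681, used for names only, and the En1 and Slc6a5 markers were not matched. A few listed region and cell markers are not reported here and were left out of their lists. The members, gene lists and rules were chosen with earlier results of these data known. Alternatives were quantile and normexp normalization (offset 50), the array median, the mean of all probes of a strand, other filters, 1 degree of freedom fewer, slide as a term, the largest slide alone, each fraction left out, the deposited log2 table, and, chosen after seeing the data, leaving out the arrays with many raised strands.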

Additional observations from a re-analysis of the deposited data

Results flagged for a closer look

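In sets of 6 or 10 arrays, a value was singled out when its gap to the nearest other value, as a share of the whole range of the set, passed Dixon's 95% critical value. Of 40 sets examined, 9 values did so. Chance flags about 1 in 20 sets, but most of these sets hold intervals chosen for their change on the same arrays and several share an array, so no chance count applies to the 9. The count of raised strands in sagittal fraction 9 was 488, against 157 on the next array (gap share 0.678).

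Sagittal fraction 9 also held the outlying strand difference at chr13:73472571-73483846 (-1.12 log2, next -9.56, share 0.779), chr17:88225376-88238756 (2.95, next -3.28, share 0.747) and chr10:116814196-116920696 (-4.80, next 1.01, share 0.757). The same fraction stood apart at chr16:23992037-24001037 (4.98, next -0.97, share 0.756) and chr5:53931541-53945241 (-3.77, next 1.97, share 0.657).

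The other outlying differences were at chr15:98842850-98853100 in sagittal fraction 1 (-7.68, next -5.54, share 0.51), at chr6:95418306-95424131 in sagittal fraction 5 (8.27, next 1.27, share 0.477) and at chr3:88009045-88036270 in horizontal fraction 5 (5.02, next 5.49, share 0.641).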

How the results depend on the processing

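No paired analysis was possible because fractions of the same number in different planes are different parts of the brain. Detection depended on its definition. The numbers of intervals with both strands, F alone, R alone and neither were 179, 222, 214 and 451 when all 28 arrays were required, 522, 204, 195 and 145 when at least 1 fraction of each series was required, and 407, 205, 269 and 185 when 0.5 of the probes of a strand had to pass. With the flag for positive and significant signal F alone, R alone and neither were 8, 5 and 0, and without sagittal fraction 9 and horizontal fractions 1, 5 and 6 F alone was 108, and without sagittal fraction 1 as well F alone was 111 and R alone 107. The median r between strands was 0.53 with the array median and 0.56 with the mean of all probes of a strand, which left 34 intervals. The median size of the strand difference ran from 1.80 to 2.86 log2 over the alternatives tried.

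Changes of the dominant strand, in the order coronal, horizontal and sagittal, were 8, 10 and 42 with normexp, 14, 11 and 41 with the mean of all probes, 28, 23 and 70 at 2 log2, 130, 122 and 229 at 0.5 log2, 17, 21 and 56 with both strands well above background, and 16, 12 and 17 with 2 fractions in each direction. Without horizontal fractions 1, 5 and 6 the horizontal count was 5, and the sagittal count was 71 without fraction 9 and 60 without fractions 1 and 9.

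Intervals called for a change of the difference were 15, 9 and 2 with the mean of all probes, which left 39, 65 and 39 testable. With slide as a term they were 0 in the coronal and 12 in the sagittal series, and within the largest slide 31 and 0. In the horizontal series they were 94 with normexp, 13 with the wider filter and 0 with 1 degree of freedom fewer (limma, 17 at an unadjusted p under 0.05). Leaving out each fraction gave 56 to 86 (coronal), 0 to 37 (horizontal) and 0 to 60 (sagittal). The deposited log2 table gave 77, 51 and 21, the counts of the report. Single probes called were 2803, 1518 and 4273 of 9650 tested with no filter (29.0%, 15.7% and 44.3%, against 31.1%, 13.3% and 34.5% of all 55213 probes). Coronal counts were 6 with slide as a term (0.176%, against 0.744% of all probes tested). They were 362 within the largest slide (10.6% against 12.8%), and leaving out fractions gave 589 to 962. Horizontal counts were 1477 with the array median, 0 with 1 degree of freedom fewer and 0 to 752 without a fraction. Sagittal counts were 330 with quantile normalization, 31 with the array median, 253 with slide as a term, 0 within the largest slide and 0 to 1835 without a fraction. The causes were not tested.

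Of the named changes, all 4 coronal ones passed the threshold whichever fraction was left out (48 of 48 fits), the horizontal ones in 8 of 24 and the sagittal ones in 20 of 40. Under the other alternatives they passed in 22 of 28, 13 of 21 and 16 of 28 fits, all 4 coronal calls were lost with slide as a term, and none reversed.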
